A study of Mus musculus with 14 samples.

Results

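Neutrophil granule and maturation genes were followed in the spleen and ovary of mice that lack *Zfp36l2*. The set holds 40 genes, picked by name as genes of neutrophils and their precursors, out of 49315 genes in the spleen count table. By function they fall into 6 roles. These are 4 genes of the progenitor stage or regulators, 4 of primary granules, 11 of secondary granules and 2 of tertiary granules. A further 7 are cytosolic or late maturation genes, and 12 are receptors or surface proteins of mature cells. All 40 were found in the spleen table and passed its filter on low counts, and 20 have a row in the ovary table.

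The samples were 4 wild-type and 4 L2-fKO spleens and 3 wild-type and 3 L2-fKO ovaries, each from 1 animal, and poly(A) RNA was sequenced. L2-fKO animals (L2-cKO in the labels) carry CMV-*Cre* and have lost the floxed part of *Zfp36l2* in every tissue, the germ line included. Wild-type littermates have intact *Zfp36l2* and carry the same CMV-*Cre* transgene. The knockout is therefore not limited to blood cells, and L2-fKO pups die before the second week of life with anemia and pancytopenia. The labels give no ages and call the spleen source an organoid. By the paper, the spleens came from 4 age-matched pairs, and the ovary animals were also matched for age. They number a pair of wild-type spleens 3, and the male of the pair is named wild-type spleen 4 here. Wild-type spleens 1 and 3 and L2-fKO spleen 3 are female and the other 5 spleens are male by the labels. L2-fKO spleen 3 and L2-fKO ovary 1 came from the same animal.

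Neutrophils are short-lived phagocytes that store antimicrobial proteins in granules. The granule proteins are made in succession as the cell matures: primary (azurophil) granules at the promyelocyte stage, secondary (specific) granules at the myelocyte and metamyelocyte stages, and tertiary (gelatinase) granules later, while chemokine and pathogen receptors are gained by nearly mature cells. In newborn mice the spleen itself makes blood cells, so a whole spleen can hold every stage. ZFP36L2 is a zinc finger protein that binds AU-rich elements in the 3′UTR of mRNAs and promotes their decay.

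Among the longest annotated 3′UTRs of the 40 members, only 2 hold the element UAUUUAU, those of *Ltf* and *Mmp9*. These sites are shown because the element is the one that ZFP36L2 binds. They were read in GRCm38 (GENCODE annotation), and capitals mark the element.
Ltf, chr9:111042738-111042767, plus strand: uaaaaauuaaauuUAUUUAUuuacauccca
Mmp9, chr2:164955294-164955323, plus strand: uccagcccuuuUAUUUAUuauguaugaggu
The element begins at base 569 of the 585-base 3′UTR of *Ltf* and at base 399 of the 944-base 3′UTR of *Mmp9*. It was present in 5% of members and in 29.5% of the 14227 tested spleen genes with an annotated 3′UTR. The shorter AUUUA, which the longer element contains, was present in 12 members (30%) against 69.9% of tested genes. Member 3′UTRs were short, with a median of 282 bases against 1331 bases for all tested genes; the shares were not adjusted for length. Both transcripts with UAUUUAU were among the 27 of 40 members that were lower in the L2-fKO spleen. A link between the element and this fall was not tested.

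C/EBP proteins, among them the member *Cebpe*, bind palindromic sites related to TTGCNNAA, and C/EBPε is a known regulator of secondary granule genes. This motif was searched on both strands of RefSeq promoter windows (GRCm38.p6, 250 bases before to 50 bases after each start), in which 34 of the 40 members have 35 windows. It was found in 11 of these 35 windows (31.4%) and in 10.8% of all 32851 windows. Among the secondary granule genes, *Ltf*, *Ngp*, *Lcn2* and *Mmp8* hold a match. *Chil3*, *Camp*, *Pglyrp1*, *Hp*, *Lrg1*, *Cd177* and *Olfm4* have none, either because none was found or because they have no window. The matches of the secondary granule genes are printed in the direction of transcription with the motif in capitals.
Ltf, chr9:111019206-111019235, plus strand: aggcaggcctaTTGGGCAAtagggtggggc
Ngp, chr9:110419659-110419688, plus strand: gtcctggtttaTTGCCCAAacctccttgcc
Ngp, chr9:110419786-110419815, plus strand: accggcagttcTTGGGCAAggcagtctcaa
Lcn2, chr2:32387937-32387966, minus strand: agcccttcctgTTGCTCAAccttgcacagt
Mmp8, chr9:7558399-7558428, plus strand: ttaggcagaagTTGCTCAAgatgtagcttt
The motif starts at position -75 from the start site in *Ltf*, -138 and -11 in *Ngp*, -216 in *Lcn2* and -19 in *Mmp8*. *Fcnb* and *Ms4a3* (progenitor stage), *Anxa1*, *Retnlg* and *S100a9* (cytosolic or late maturation), and *Clec4e* and *Ly6g* (mature surface) also hold a match. A match is a string of letters and not a shown binding site, and no binding was measured here.

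Total counts on genes were 39138010 to 45167464 per spleen library and 31052510 to 44270070 recovered reads per ovary library. *Zfp36l2* itself had 4362 to 7394 normalized counts in wild-type and 277.7 to 405 in L2-fKO spleens, and 4745 to 4906 against 758 to 1011 in the ovaries, so every library matched its label. The gene-level count also covers what lies outside the deleted part. A pair of spleen libraries stood apart for the members: L2-fKO spleen 3 had the lowest of the 4 L2-fKO values for 36 of 40 members, and wild-type spleen 3 the highest of the 4 wild-type values for 34. A normalized count below is a count brought to the mean library size of the 8 spleens after TMM scaling. The values are listed in the order of spleens 1 to 4.

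In the L2-fKO spleen, 27 of the 40 members were lower and 0 were higher than in wild type (edgeR's quasi-likelihood test, p-values adjusted by the Benjamini-Hochberg method over 16911 genes). A call needed an adjusted p under 0.05 and a log2 fold change beyond 1 in either direction. Of all genes tested, 3.11% were lower and 2.9% higher by the same limits. At an unadjusted p under 0.05, 35 members were lower and 1, *Lrg1*, was higher. The share of all genes at this unadjusted limit was not computed, here or for the lists and ovary below. DESeq2 called 30 lower and 0 higher, with *Olfm4*, *Padi4* and *Trem1* beyond the 27 of edgeR. Among all 16911 genes DESeq2 called 596 lower and 548 higher. The median log2 fold change of the members was -1.81, against -0.02 for all genes tested, and 37 of 40 were below 0. With the adjusted p as the only limit, 28 members were lower (6.51% of all genes) and 1 was higher (6.89% of all genes). In 32 members every L2-fKO value lay below every wild-type value (10.8% of all genes), and in 1, *Lrg1*, every L2-fKO value lay above (9.61%). From bulk RNA, fewer cells of a type and less RNA per cell cannot be told apart. Each library is 1 animal, so the test weighs the difference between genotypes against the spread between animals, estimated partly across genes. The main test had no term for sex, so that spread includes any difference between the sexes.

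The count of lower members was 24 without the third library of each genotype and 23 in the male libraries alone, with 0 higher in both. It was 27 without L2-fKO spleen 3, with a median log2 fold change of -1.50. Leaving out wild-type spleen 2 brought the count to 15 and leaving out L2-fKO spleen 1 brought it to 16, while the median log2 fold change of the members was -1.84 and -1.91. The 12 calls lost without wild-type spleen 2 were those of *Cebpe*, *Ms4a3*, *Fcnb*, *Mpo*, *Prtn3*, *Ltf*, *Mmp8*, *Mmp9*, *Anxa1*, *Cxcr2*, *Ly6g* and *Itgb2l*. The 11 lost without L2-fKO spleen 1 were those of *Cebpe*, *Ms4a3*, *Mpo*, *Prtn3*, *Ltf*, *Mmp8*, *Mmp9*, *Anxa1*, *Cxcr2*, *Itgb2l* and *Fpr2*. Under all 16 alternative fits of the spleen data 13 members stayed called: *Elane*, *Camp*, *Ngp*, *Lcn2*, *Chil3*, *Pglyrp1*, *Hp*, *Cd177*, *S100a9*, *Retnlg*, *Wfdc21*, *Ltb4r1* and *Trem3*. By role, 1 of 3 primary and 7 of 9 secondary granule calls stayed. So did 3 of 5 cytosolic or late and 2 of 6 receptor calls. None of the 3 progenitor stage or regulator calls stayed, nor did the 1 tertiary granule call.

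**Figure D1:**
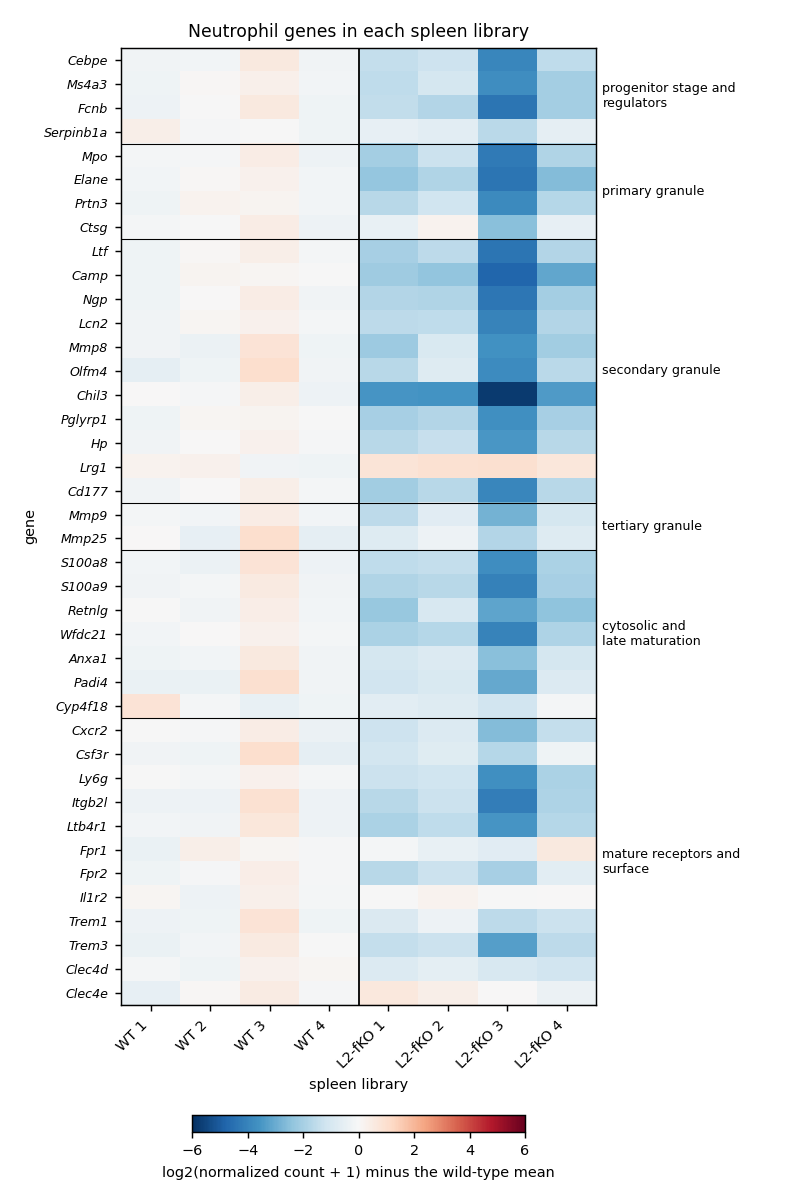
Deviation of each of the 40 genes in each of the 8 spleen libraries, as log2(normalized count + 1) minus the mean of the 4 wild-type libraries, with blue below and red above it. Genes are rows grouped by role and libraries are columns; L2-fKO spleen 3 is the darkest column, *Chil3* the darkest row, and *Lrg1* is above the wild-type mean in all 4 L2-fKO spleens.

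**Figure D2:**
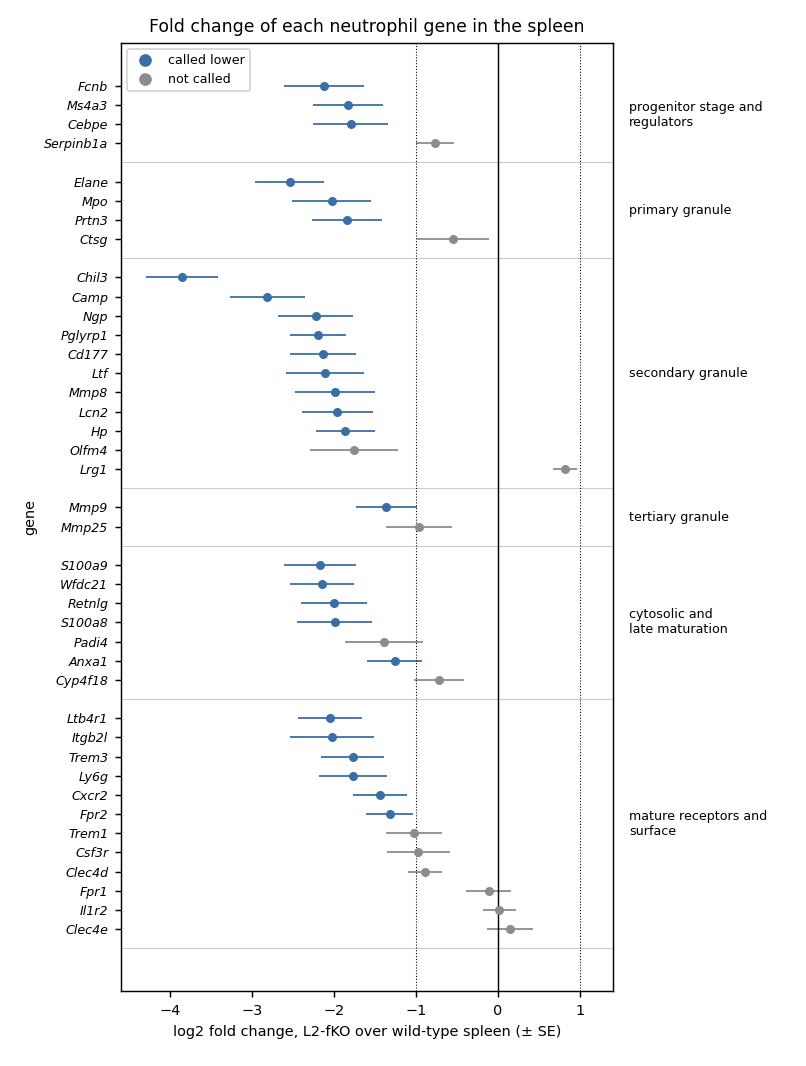
Log2 fold change of each gene in L2-fKO over wild-type spleens (points) with its standard error (bars), by role. Blue points are the 27 genes called lower, gray points the 13 not called, and dotted lines mark a log2 fold change of 1 in either direction.

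Levels of the members in wild-type spleens, given as normalized counts per kilobase of exon so that genes can be compared, spanned from 16.8 for *Clec4e* to 99382 for *S100a9*. The alarmin subunits *S100a9* and *S100a8* (45786) and the secondary granule genes *Ngp* (38401) and *Camp* (29927) were the most abundant. *Ltf* (6753), *Chil3* (5440), *Lcn2* (4520) and the primary granule genes *Elane* (5329), *Mpo* (3862) and *Prtn3* (3667) were at lower levels. Receptor genes were scarce, from *Clec4e* up to *Trem3* at 584.5. In L2-fKO spleens the same measure was 22057 for *S100a9*, 11524 for *S100a8*, 8214 for *Ngp* and 4257 for *Camp*. *Chil3* was at 375, *Elane* at 915, *Mpo* at 947 and *Prtn3* at 1023.

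Progenitor stage and regulator genes were lower in 3 of 4 cases, with a median log2 fold change of -1.81. *Ms4a3*, a membrane protein that marks granulocyte and monocyte progenitors (ENSMUSG00000024681, chr19:11629496-11640851), had 985.5, 1236, 1414 and 1051 normalized counts in wild-type spleens and 401.9, 550.5, 85.8 and 281.4 in L2-fKO spleens. It was 3.55-fold lower (log2 fold change -1.83 ± 0.43 SE, adjusted p = 0.022). *Fcnb*, the ficolin of immature neutrophils (ENSMUSG00000026835, chr2:28076378-28084885), had 1452, 1738, 2698 and 1510 against 649.3, 530.6, 84.7 and 433.2 (-2.12 ± 0.49, adjusted p = 0.0198). For both genes the groups did not overlap, and L2-fKO spleen 3 was far below the other 3. *Cebpe*, the transcription factor of secondary granule genes (chr14:54710360-54712174), ranged from 710.5 to 1263 in wild-type and from 54.3 to 344.5 in L2-fKO spleens and was lower by the test (-1.79 ± 0.46, adjusted p = 0.0305). *Serpinb1a*, an inhibitor of neutrophil serine proteases, spanned 3281 to 4956 against 1281 to 2714 and was not called (-0.77 ± 0.23, adjusted p = 0.055).

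Of the 4 primary granule genes, *Mpo*, *Elane* and *Prtn3* were lower and *Ctsg* was not called. *Mpo*, myeloperoxidase (ENSMUSG00000009350, chr11:87793581-87804413), had 12148, 12392, 17671 and 10683 normalized counts in wild-type and 3174, 5379, 695 and 3725 in L2-fKO spleens. Its log2 fold change was -2.03 ± 0.48 (adjusted p = 0.0226). *Elane*, neutrophil elastase (ENSMUSG00000020125, chr10:79886247-79888215), had 4571, 5517, 6181 and 4704 against 1032, 1468, 247.7 and 854.4. It was 5.82-fold lower (-2.54 ± 0.42, adjusted p = 0.0044), the largest fall in this role. *Prtn3*, proteinase 3 (ENSMUSG00000057729, chr10:79874476-79883174), ends 3.07 kb before *Elane* on the same strand. It had 5328, 7298, 7110 and 5671 against 1993, 2718, 446.5 and 1933 (-1.84 ± 0.43, adjusted p = 0.02). In these 3 genes the lowest wild-type value was well above the highest L2-fKO value.

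*Ctsg*, cathepsin G, belongs to the same granules (chr14:56099881-56102574), but its groups overlapped. It ranged from 1768 to 2955 in wild-type and from 379.1 to 2528 in L2-fKO spleens, and L2-fKO spleen 2 exceeded 3 of the 4 wild-type values. The log2 fold change was -0.55 ± 0.44 (adjusted p = 0.441), and the L2-fKO mean was 68.5% of wild type, against 24.5% for *Mpo*, 17.2% for *Elane* and 27.9% for *Prtn3*. Whether *Ctsg* differs from the other primary granule genes was not tested. Mast cells also use cathepsin G, and 5 of 7 mast cell and basophil markers were higher in the L2-fKO spleen, with summed levels of 1266 to 2390 in wild-type and 2568 to 14665 in L2-fKO libraries. Their part in the *Ctsg* value was not tested.

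Secondary granule genes included the largest fall of any member, that of *Chil3*, and the one member that was higher by the adjusted p, *Lrg1*. Of 11 genes 9 were lower, and in 10 every L2-fKO value lay below every wild-type value. *Chil3*, the chitinase-like protein Ym1 (ENSMUSG00000040809, chr3:106147554-106167564), had 8765, 8471, 11237 and 7036 normalized counts in wild-type and 744.3, 718.9, 164 and 822.8 in L2-fKO spleens. It was 14.5-fold lower (-3.86 ± 0.44, adjusted p = 0.000571). *Camp*, the cathelicidin antimicrobial peptide (ENSMUSG00000038357, chr9:109847379-109849617), had 18877, 25475, 24158 and 22230 against 5074, 4432, 829 and 2573. It was 7.03-fold lower (-2.81 ± 0.46, adjusted p = 0.00413). Even the highest L2-fKO value of *Camp* lay far below its lowest wild-type value, and the L2-fKO mean was 14.2% of wild type, against 6.9% for *Chil3*.

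*Ngp*, neutrophilic granule protein (chr9:110419747-110423012), and *Ltf*, the iron-binding lactoferrin (chr9:111019271-111042767), are on the same chromosome as *Camp*, from which *Ngp* lies 570.1 kb away and *Ltf* a further 596.3 kb. *Ngp* had 38821, 46703, 62119 and 40061 normalized counts in wild-type and 13428, 13297, 2263 and 11164 in L2-fKO spleens (-2.23 ± 0.46, adjusted p = 0.0131). *Ltf* had 19243, 24123, 28943 and 20882 against 5867, 7842, 1087 and 6801 (-2.11 ± 0.48, adjusted p = 0.0187). Both fell by similar amounts, to 21.4% and 23.2% of the wild-type mean. *Lcn2*, the siderophore-binding lipocalin (chr2:32384633-32388252), had 10036, 12680, 13890 and 10818 against 3910, 4101, 730 and 3446 (-1.96 ± 0.43, adjusted p = 0.0165).

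*Pglyrp1*, a peptidoglycan recognition protein (chr7:18871331-18890459), had 2574, 3358, 3539 and 3120 normalized counts in wild-type and 797.5, 930.4, 240.1 and 774.2 in L2-fKO spleens (-2.20 ± 0.34, adjusted p = 0.0034). *Hp*, haptoglobin, which binds free hemoglobin (chr8:109575128-109579172), had 2591, 3103, 3596 and 2841 against 947.8, 1167, 270.5 and 952.4 (-1.86 ± 0.36, adjusted p = 0.00961). *Cd177*, a surface glycoprotein that reaches the membrane from these granules (chr7:24743983-24760311), had 2475, 2902, 3712 and 2647 against 671.2, 908.3, 190.1 and 909.8 (-2.13 ± 0.40, adjusted p = 0.00845). In all 3 the L2-fKO spleens other than the third lay close together. *Mmp8*, neutrophil collagenase, ranged from 981.9 to 2176 in wild-type and from 98.9 to 660.2 in L2-fKO spleens and was lower (-1.99 ± 0.49, adjusted p = 0.0268). *Olfm4*, olfactomedin 4, which marks only some neutrophils, ranged from 928 to 2661 against 97.8 to 780.9. Its groups did not overlap, and it missed the threshold in edgeR (-1.76 ± 0.54, adjusted p = 0.0586) but was called lower in 4 of 16 alternatives, among them DESeq2 and the fit without L2-fKO spleen 2 (-2.21).

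*Lrg1*, a leucine-rich glycoprotein packed in neutrophil granules and also made by endothelium and liver (ENSMUSG00000037095, chr17:56119678-56122001), went the other way. Its normalized counts ranged from 1986 to 2831 in wild-type and from 3827 to 4643 in L2-fKO spleens. The log2 fold change was 0.82 ± 0.14 (adjusted p = 0.00579), which is higher by the adjusted p but under the limit on fold change. It stayed between 0.70 and 0.91 in all 16 alternatives, and L2-fKO spleen 3, the lowest library for most members, was the highest for *Lrg1*. Of 6 endothelial and stromal markers 1 (*Pdgfrb*) was higher, 3 had no overlap between groups, with L2-fKO above, and the summed level of the list was 42614 to 47783 in wild-type and 52600 to 71439 in L2-fKO spleens. The part of other cell types in the *Lrg1* level was not tested.

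**Figure D3:**
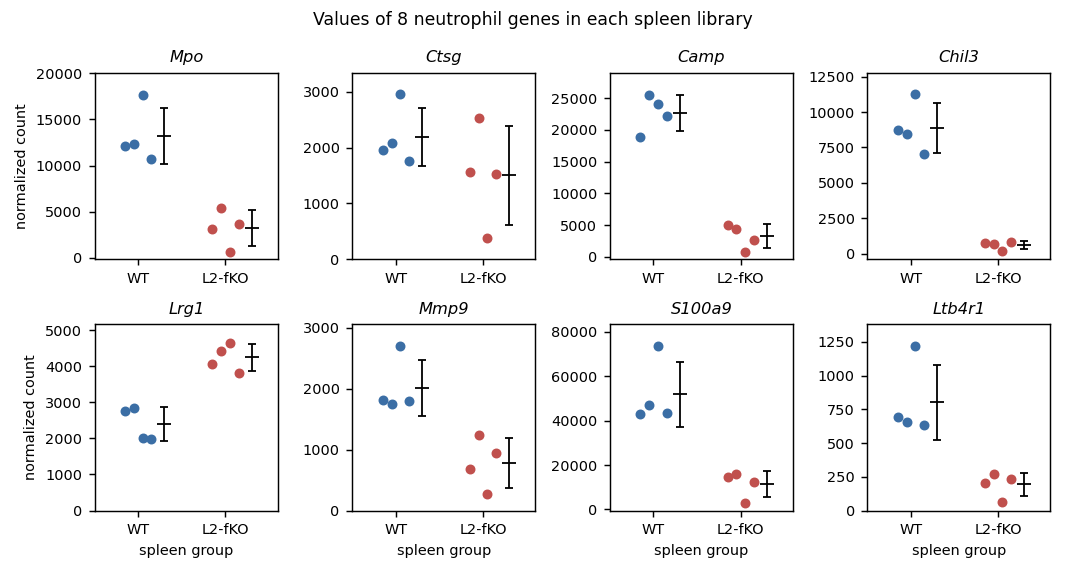
Normalized counts of 8 genes in the 4 wild-type (blue) and 4 L2-fKO (red) spleens, 1 point per animal, with the mean and SD in black and every axis from 0. The groups are apart in all panels but that of *Ctsg*, and *Lrg1* alone is higher in L2-fKO.

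Tertiary granules were represented by *Mmp9*, the gelatinase that gives them their name (ENSMUSG00000017737, chr2:164940780-164955850), and *Mmp25*, a membrane-bound metalloprotease (chr17:23628311-23645277). *Mmp9* ranged from 1744 to 2705 normalized counts in wild-type and from 274.8 to 1238 in L2-fKO spleens and was 2.57-fold lower (-1.36 ± 0.38, adjusted p = 0.04). This call had the largest adjusted p of the 27, and it was lost in 8 of 16 alternatives, among them each fit that left out 1 of the 4 wild-type spleens or L2-fKO spleen 1. *Mmp25* was scarce, with 103.1 to 298.2 against 43.5 to 118.5, and its groups overlapped (-0.97 ± 0.40, adjusted p = 0.142).

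Of 7 cytosolic or late maturation genes, 5 were lower. *S100a8* (chr3:90668978-90670035) and *S100a9* (chr3:90692632-90695721) encode the subunits of calprotectin, the main cytosolic protein of neutrophils, and lie 22.6 kb apart. *S100a8* had 26802, 23883, 52150 and 24267 normalized counts in wild-type and 10425, 11255, 2294 and 8016 in L2-fKO spleens (-1.99 ± 0.46, adjusted p = 0.0194). *S100a9* had 43103, 47219, 73575 and 43614 against 14391, 16088, 3051 and 12525 (-2.17 ± 0.44, adjusted p = 0.0115). Wild-type spleen 3 was the highest and L2-fKO spleen 3 the lowest for both subunits. *Retnlg*, a resistin-like protein of mature neutrophils (chr16:48872621-48874496), had 1519, 1346, 2026 and 1375 against 319.4, 787.6, 169.5 and 288.2 (-2.003 ± 0.40, adjusted p = 0.0114). *Wfdc21*, a small whey acidic protein domain protein (chr11:83746940-83752642), had 832.7, 958.6, 1129 and 849 against 247.4, 289.1, 57.6 and 254.9 (-2.15 ± 0.39, adjusted p = 0.00733).

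*Anxa1*, annexin A1, which limits neutrophil recruitment and is made by many cell types, ranged from 6479 to 11512 normalized counts in wild-type and from 1350 to 4391 in L2-fKO spleens. It fell the least of the called genes in this role (-1.26 ± 0.34, adjusted p = 0.0349). *Padi4*, the enzyme that citrullinates histones in neutrophil extracellular traps, had no overlap between groups at 296.1 to 755.4 against 44.5 to 218.3 but was not called by edgeR (-1.39 ± 0.47, adjusted p = 0.0815), while DESeq2 called it lower (adjusted p = 0.0138). *Cyp4f18*, which inactivates leukotriene B4, overlapped at 467.1 to 1128 against 290 to 589.2 (-0.72 ± 0.31, adjusted p = 0.153).

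Among the 12 mature receptor and surface genes 6 were lower and 6 were not called, and the median log2 fold change was -1.17. *Ltb4r1*, the leukotriene B4 receptor (ENSMUSG00000046908, chr14:55765962-55768494), had 696, 658.6, 1220 and 634.7 normalized counts in wild-type and 203.6, 269.2, 66.3 and 233.6 in L2-fKO spleens (-2.05 ± 0.39, adjusted p = 0.00869). *Cxcr2*, the receptor by which neutrophils leave the marrow and follow chemokines (chr1:74153989-74161246), had 562.1, 558.6, 794.1 and 450.8 against 241.1, 326.8, 94.5 and 212.3 (-1.44 ± 0.33, adjusted p = 0.0196). *Ly6g*, the surface antigen that defines mouse neutrophils in cell sorting (chr15:75155240-75159126), had 271.6, 256.6, 328 and 254.7 against 113.8, 118.5, 20.6 and 73.3 (-1.77 ± 0.42, adjusted p = 0.0223). For these 3 receptors all L2-fKO spleens lay below all wild-type spleens. *Itgb2l*, an integrin beta subunit of neutrophils (ENSMUSG00000000157, chr16:96422288-96443619), had 759.2, 779.8, 1772 and 776.2 against 298.5, 385.5, 52.1 and 265.2 (-2.03 ± 0.51, adjusted p = 0.0297).

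Several receptors lie next to a relative that edgeR did not call, and the difference between such neighbours was not tested. *Fpr2*, a formyl peptide receptor (chr17:17887824-17893952), had 414.9, 463.7, 642.1 and 476 normalized counts in wild-type and 156.6, 200.5, 121.7 and 320.6 in L2-fKO spleens (-1.32 ± 0.29, adjusted p = 0.0158). It overlaps the related *Fpr3* on the same strand, so reads from the shared stretch are uncertain. *Fpr1*, 3.88 kb away, spanned 201.8 to 334.4 against 165.1 to 393.1, with a log2 fold change near 0 (-0.11 ± 0.28, adjusted p = 0.828). *Trem3* (chr17:48247777-48258841), an activating receptor of myeloid cells, had 431.9, 503.1, 827.9 and 560.9 against 205.6, 229.3, 55.4 and 189.3 (-1.77 ± 0.39, adjusted p = 0.0159). *Trem1*, 0.853 kb before it, had no overlap at 197.1 to 419.4 against 80.4 to 191.6 but missed the threshold in edgeR (-1.03 ± 0.34, adjusted p = 0.0758), while DESeq2 called it lower (adjusted p = 0.0188).

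The C-type lectins *Clec4d* and *Clec4e*, fungal and mycobacterial sensors shared with macrophages, are 6.52 kb apart on chromosome 6. *Clec4d* was lower by the adjusted p alone (78.8 to 111.3 against 42.6 to 63.1 normalized counts, -0.89 ± 0.21, adjusted p = 0.0221). *Clec4e* overlapped, at 57.5 to 115.3 against 62.3 to 124.2 (0.15 ± 0.28, adjusted p = 0.766). *Il1r2*, the interleukin 1 decoy receptor (ENSMUSG00000026073, chr1:40074079-40125231), had 63.2, 47.5, 73.6 and 54.6 in wild-type and 57.4, 67.6, 57.6 and 59.7 in L2-fKO spleens (0.02 ± 0.21, adjusted p = 0.963). Here the groups were mixed, and L2-fKO spleen 3 did not stand apart. *Csf3r*, the receptor for granulocyte colony-stimulating factor, overlapped at 384.1 to 1109 against 171.6 to 470.7 (-0.97 ± 0.38, adjusted p = 0.125).

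Set side by side, the roles fell to different depths in each knockout animal. The median deviation of a role from the wild-type mean, on the log2(normalized count + 1) scale, was -1.85, -1.24, -4.02 and -1.75 for primary granule genes in L2-fKO spleens 1 to 4. For secondary granule genes it was -1.97, -1.55, -3.92 and -1.77. Progenitor stage and regulator genes gave -1.45, -1.17, -3.82 and -1.79, and cytosolic or late maturation genes -1.53, -0.97, -3.18 and -1.87. The medians were nearer to 0 for tertiary granule genes (-1.15, -0.50, -2.30 and -0.92) and receptor genes (-1.17, -0.77, -1.85 and -1.22). In all 4 L2-fKO spleens the tertiary granule and receptor medians were thus the least reduced. Roles are not replicates, several receptor genes are also used by macrophages, and the difference between roles was not tested. Among wild-type spleens the role medians lay between -0.35 and 0.73, with wild-type spleen 3 the highest in every role.

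**Figure D4:**
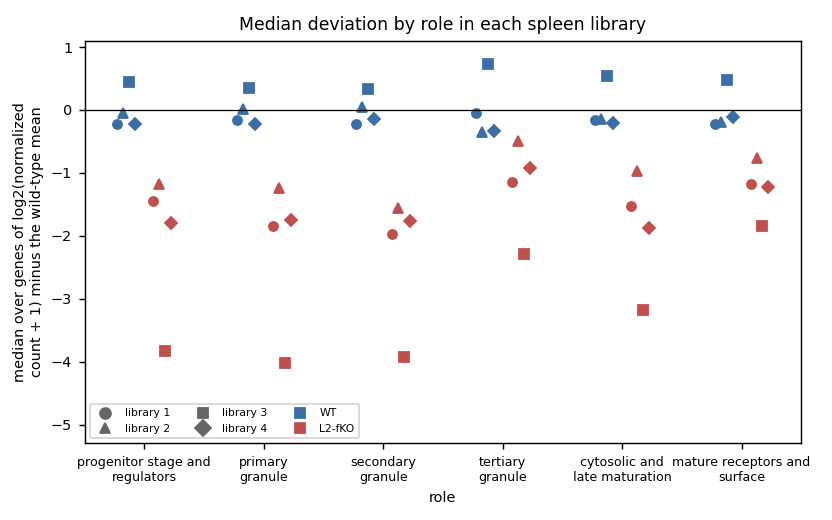
Median over the genes of each role of log2(normalized count + 1) minus the wild-type mean, 1 symbol per spleen library, wild type in blue and L2-fKO in red. All red symbols are below the blue ones within each role, L2-fKO spleen 3 (red squares) is the lowest in all 6 roles, and the tertiary granule and receptor medians are nearest to 0.

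Other genes of neutrophil biology were counted by list. Of 20 other neutrophil genes 10 were lower and 0 higher (median log2 fold change -1.47; at an unadjusted p under 0.05, 12 lower and 0 higher; DESeq2 called 11 lower and 0 higher). *Itgam*, the CD11b integrin chain, fell by 2.28 ± 0.36 (adjusted p = 0.00344) and *Mcemp1* by 2.19 ± 0.36 (adjusted p = 0.00405) on the log2 scale. The stefin genes *Stfa3* (-3.03 ± 0.49, adjusted p = 0.00382) and *Stfa1* (-3.79 ± 0.62, adjusted p = 0.00413) also fell, although near-identical copies make the assignment of their reads uncertain. *Alox5ap*, needed for leukotriene synthesis, fell by 1.55 ± 0.26 (adjusted p = 0.00457). Of 6 NADPH oxidase genes only *Ncf4* was lower (-1.03 ± 0.28, adjusted p = 0.0389), a call lost in 10 of 16 alternatives, among them every fit without 1 library except that without L2-fKO spleen 4 (log2 fold change -1.24 to -0.80 over the fits without 1 library). At an unadjusted p under 0.05, 5 of the 6 were lower, and DESeq2 called 1 lower.

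Of 12 regulators of granulopoiesis 10 were tested, 1 was lower and 0 were higher (at an unadjusted p under 0.05, 4 lower and 1 higher; DESeq2 called 1 lower and 0 higher). *Gfi1*, the repressor required for neutrophil differentiation, was lower (-1.16 ± 0.28, adjusted p = 0.026). Its call was lost in 7 of 16 alternatives, among them the fits that left out L2-fKO spleen 1, 2 or 3 or wild-type spleen 2 or 4 (-1.30 to -0.92 over the fits without 1 library). *Csf2rb*, the shared receptor chain for GM-CSF, interleukin 3 and interleukin 5, was higher by the adjusted p alone (0.95 ± 0.19, adjusted p = 0.00967). Its groups did not overlap, and 6 of 16 alternatives called it higher (log2 fold change 0.78 to 1.27 over all 16). *Runx1*, a transcription factor of blood stem and progenitor cells, was lower by the adjusted p alone (-0.41 ± 0.10, adjusted p = 0.0218), with no overlap between groups. *Csf2ra*, the specific GM-CSF receptor chain, was not called (-0.79 ± 0.25, adjusted p = 0.0649). *Spi1*, which encodes PU.1, was not called (-0.51 ± 0.23, adjusted p = 0.17). *Csf3* and *Csf2*, the growth factors themselves, were under the filter at 0 to 4.26 normalized counts. Of 8 genes for chemokines and retention 6 were tested. The neutrophil-attracting chemokines *Cxcl5* (2.75 ± 0.32, adjusted p = 0.000664) and *Cxcl1* (2.31 ± 0.45, adjusted p = 0.00981) were higher, and the marrow retention receptor *Cxcr4* was lower (-1.03 ± 0.24, adjusted p = 0.0206). The *Cxcr4* call was lost in 6 of 16 alternatives, among them those leaving out L2-fKO spleen 1, 2 or 4 or wild-type spleen 2 or 4 (-1.21 to -0.84 over the fits without 1 library). *Cxcl1* was scarce, at 1.01 to 5.96 normalized counts in wild-type and 11.1 to 26.4 in L2-fKO spleens. The ligand of *Cxcr4*, *Cxcl12*, was not called (0.31 ± 0.17, adjusted p = 0.274).

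Markers of other cells moved with genotype to different extents. Eosinophil genes were lower in 4 of 5 cases (*Siglecf* was not matched), with summed levels of 11549 to 25853 in wild-type and 973.3 to 2722 in L2-fKO spleens. All 6 megakaryocyte and platelet genes were lower, at 21276 to 43625 against 1120 to 1371. Of 10 monocyte and macrophage genes 3 were lower (*Ly6c2*, *Ccr2* and *F13a1*) and 0 higher (2 at an unadjusted p under 0.05 and 0 by DESeq2). The sum of the 10 was 21029 to 26603 against 23599 to 50512. *Csf1r* (7241 to 10260 against 11966 to 26580) and *Adgre1* (3028 to 4184 against 4861 to 10380) did not overlap, with L2-fKO above. *Adgre1* was higher by the adjusted p of edgeR alone (0.87 ± 0.25, adjusted p = 0.0481). In 5 of the 10 genes the groups overlapped. By edgeR and DESeq2 none of the 8 erythroid, 6 B cell or 6 T cell genes was called, and at an unadjusted p under 0.05 only 1 erythroid gene differed, being higher. Of 5 pancreatic acinar genes tested 4 were lower, and the list summed to 1631 to 20611 in wild-type and 1250 to 2166 in L2-fKO spleens. *Cela1* made up most of the low sums, with 1593 normalized counts in wild-type spleen 3 and 1227 to 2091 in L2-fKO spleens. The other 5 acinar genes were at 0.853 to 23.9 in every L2-fKO spleen and at 1.99 to 11.9 in wild-type spleen 3, where most neutrophil genes were highest, against 303 to 6007 in wild-type spleens 1, 2 and 4. The part of these cell types in the fall of neutrophil genes was not tested.

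In the ovary, 2 of the 20 members with a row were higher in L2-fKO and 0 were lower (limma on log2(normalized value + 1) over 18504 genes). Of all genes tested, 0.73% were higher and 0.227% lower. At an unadjusted p under 0.05, 3 members were higher and 0 lower, and DESeq2 on recovered reads called 2 higher and 0 lower. Among all 18504 genes DESeq2 called 286 higher and 121 lower. The median log2 fold change of the 20 members was -0.08, against -0.004 for all genes. The ovary table was normalized separately, so its values cannot be set against those of the spleen. With 3 animals per group the test relies on a spread shared across genes.

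*Il1r2* had 41.4, 43.5 and 61.5 normalized counts in wild-type ovaries 1 to 3 and 138.6, 181.9 and 132.1 in L2-fKO ovaries 1 to 3. It was higher by 1.62 ± 0.24 on the log2 scale (adjusted p = 0.0242). *Itgb2l* had 51.1, 46 and 34 against 139.5, 109.9 and 124.1 (1.504 ± 0.23, adjusted p = 0.0266). Neither group overlapped the other for these genes, but both calls were lost when any wild-type ovary, L2-fKO ovary 1 or L2-fKO ovary 3 was left out, with log2 fold changes of 1.48 to 1.79 for *Il1r2* and 1.34 to 1.63 for *Itgb2l*. *Itgb2l* was thus lower in every L2-fKO spleen and higher in every L2-fKO ovary, while *Il1r2* showed no call in the spleen. The difference between the tissues was not tested.

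Several members were scarce in ovaries on the ovary's own scale. *Ngp*, *Ltf*, *S100a8* and *S100a9* had 1.67 to 98.6 normalized counts in wild-type and 3.58 to 30.8 in L2-fKO ovaries, and for each of them wild-type ovary 1 was the highest library. None of the 4 was called, with adjusted p between 0.559 and 0.914. *Cd177* (900.4 to 905.8 in wild-type, 1003 to 1081 in L2-fKO), *Anxa1* (1807 to 1949 against 1757 to 2419) and *Serpinb1a* (911.4 to 963.4 against 915.5 to 1115) were the most abundant members there and were not called. *Mpo*, *Elane*, *Camp*, *Chil3*, *Ly6g* and *Cxcr2* are among the 20 members without a row and were not analysed in the ovary.

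**Figure D5:**
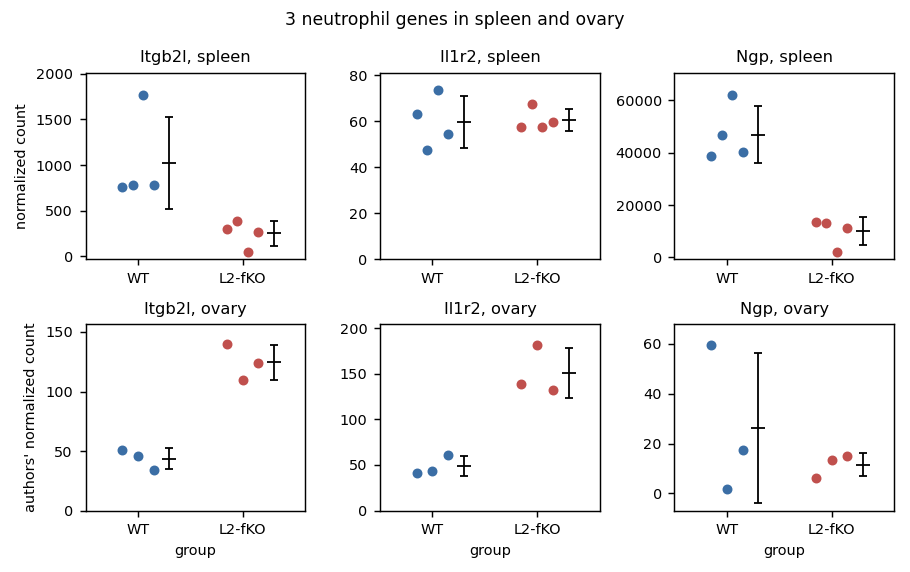
Normalized counts of *Itgb2l*, *Il1r2* and *Ngp* in wild-type (blue) and L2-fKO (red) spleens (top, 4 per group) and ovaries (bottom, 3 per group, the authors' normalization), with the mean and SD in black. *Itgb2l* is lower in the L2-fKO spleen and higher in the L2-fKO ovary, and *Il1r2* is higher in the L2-fKO ovary. *Ngp* is scarce in all ovaries on the ovary's own scale, which cannot be set against that of the spleen.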

How the data were processed

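Reads were trimmed by the authors with Trimmomatic 0.36, aligned with STAR 2.5.2b to Ensembl GRCm38, and unique exonic reads were counted by strand with featureCounts (Subread 1.5.2). For the spleen the authors deposited raw counts per gene, which were tested here, and the same counts divided by a size factor per library, which served only as a check. The ovary table deposited by the authors holds a signal value, the count divided by a size factor, for 18603 genes. Every ovary value was within 0.01 reads of a whole read, so reads were recovered for count tests. The ovary table and the spleen comparison tables also hold the authors' fold changes and p-values, which were not used; 0 per-sample columns went unmatched.

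Spleen counts were tested with edgeR 4.0.16 (R 4.3.3; TMM, quasi-likelihood, genes reaching 10 counts in 4 or more of 8 libraries), and ovary values with limma 3.58.1 (trend, log2 of the value + 1, values reaching 10 in 3 or more of 6 libraries). Adjusted p-values are Benjamini-Hochberg over all genes tested; a call needed an adjusted p under 0.05 together with a log2 fold change beyond 1 in either direction. DESeq2 1.42.0 was an alternative. The scripts were tested on simulated data. Medians and plots used Python 3.11.15. Depth was 31052510 to 45167464 counts per library, and counting error is larger for genes with few counts. Alternatives were other size factors and filters, sex, the replicate number, male libraries and each library left out; the fit without the third library of each genotype was added after seeing the data.

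The members, roles and lists were chosen with earlier results of these data known. Values in every sample are given for called members, up to 24 by smallest adjusted p, other members by range, and up to 5 genes of each other neutrophil list by smallest adjusted p.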

Additional observations from a re-analysis of the deposited data

Results flagged for a closer look

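In 14 of 80 sets of 4 spleens (40 members in 2 groups), 1 library stood further from the rest than Dixon's 95% limit allows. Chance gives this for about 1 in 20 sets, but the members are not independent, and 12 of the 14 fell on wild-type spleen 3. There the high value was 1263 normalized counts for *Cebpe*, 2176 for *Mmp8*, 2661 for *Olfm4*, 2705 for *Mmp9*, 52150 for *S100a8*, 73575 for *S100a9*, 11512 for *Anxa1*, 755.4 for *Padi4*, 1109 for *Csf3r*, 1772 for *Itgb2l*, 1220 for *Ltb4r1* and 419.4 for *Trem1*. The other 2 were low values of L2-fKO spleen 3, 1281 for *Serpinb1a* and 164 for *Chil3*. Both libraries are female. L2-fKO spleen 3 is the only female L2-fKO spleen, so sex and animal cannot be told apart in that group. Wild-type spleen 1 is female too, and it was the highest wild-type library for 2 members. The part of sex in the values of these libraries was not tested. In the male libraries alone 23 members were lower in L2-fKO and 0 were higher.

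Opposite directions in spleen and ovary, with no overlap between genotypes in either tissue, were seen for *Itgb2l*, *Clec4d* and *Cd177*. The share of all genes with this pattern was not computed, so these members cannot be set against it. All were lower in each L2-fKO spleen. In the ovary the log2 fold change was 1.504 for *Itgb2l*, 0.59 for *Clec4d* and 0.21 for *Cd177*, and only *Itgb2l* was called. The difference between the tissues was not tested.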

How the results depend on the processing

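Members lower in the L2-fKO spleen numbered 27, and 23 to 30 with DESeq2, other size factors or filters, sex, males only, the third libraries left out or the adjusted p alone. Leaving out 1 spleen gave 15 to 29, lowest without wild-type spleen 2 (15) and L2-fKO spleen 1 (16). Members higher in the spleen numbered 0, and 1 (*Lrg1*) with the adjusted p alone. In the ovary 2 were higher, and 0 to 2 with 1 ovary left out. The paper describes age-matched pairs of spleens, but the labels do not say whether the replicate numbers mark pairs, and the main tests were unpaired. Deviations of same-numbered libraries correlated at -0.135 to 0.179 in the spleen and 0.072 to 0.382 in the ovary. Other pairings were not computed, so these values cannot show whether the numbers mark pairs. The labels give the number 3 to a pair of wild-type spleens, so the block set wild-type spleens 3 and 4 with L2-fKO spleen 3 and left L2-fKO spleen 4 without a partner, and its result depends on that number. With the replicate block, 22 members were lower in the spleen, without calls for *Cebpe*, *Mmp8*, *S100a8*, *Anxa1* and *Itgb2l*, and 2 were higher in the ovary. Of 977 values of single genes under the alternatives, 866 kept their side of the threshold and direction, 85 lost a call, 19 gained one and 7 changed sign, all in uncalled genes. *Fpr1* was at 0.081 without the third library of each genotype and at -0.422 to 0.043 with 1 spleen left out. With 1 spleen left out *Il1r2* was at -0.078 to 0.132 and *Clec4e* at -0.026 to 0.341. The cause was not tested. At this depth *Csf3* and *Csf2* had too few counts to be tested.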
